A study of Mus musculus with 24 samples.

Results

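The genes that encode the proteins of the cytosolic ribosome were described across subcellular RNA fractions of mouse pluripotent cells. Members were taken by name: every gene listed in both deposited tables whose symbol has the form of an Rpl or Rps gene, with the stalk proteins Rplp0, Rplp1 and Rplp2 and the laminin receptor Rpsa included and pseudogene names ending in ps left out. This gave 84 genes of 29759, of which 52 belong to the large subunit and 32 to the small subunit. Their mRNAs were compared between chromatin, nucleoplasm, cytoplasm and unfractionated (total) RNA in naive embryonic stem cells (nESC) and in epiblast-like cells (EpiLC). All 24 libraries came from E14, an established mouse embryonic stem cell line without a genetic change named in the labels, with 3 libraries in each of the 8 groups. The nESC grew without serum in N2B27 with PD0325901 and CHIR99021, which inhibit MEK and GSK3, and with LIF. The EpiLC were made from them by moving them to N2B27 that held bFGF (12 ng/ml) together with activin A (20 ng/ml) and were collected at day 3, so both states share the parent line and the basal medium and differ in every added factor. Ribosomal RNA was removed with Ribo-zero gold, and stranded libraries were sequenced on a HiSeq instrument. The labels do not say whether the 3 libraries of a group came from separate cultures, so every p-value below measures the spread between these libraries, which may be technical.

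A ribosome is built from ribosomal RNA and one copy of most ribosomal proteins, with the small subunit reading the mRNA and the large subunit joining the amino acids. The proteins are made in the cytoplasm, imported into the nucleus, and assembled with ribosomal RNA in the nucleolus. Their genes are short, have small introns that often carry small nucleolar RNAs, and are among the most strongly expressed genes of dividing cells. Their mRNAs start with a run of pyrimidines, the terminal oligopyrimidine (TOP) tract, through which the kinase mTOR and the RNA-binding protein Larp1 control how much of the message is translated and how much is stored. In pluripotent cells this supply is known to be tied to growth factors and to Myc proteins.

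The bases around the annotated start of transcription are printed for members that the results turn on, whether their pyrimidine runs are long or short. Each line gives 15 bases before the RefSeq start on GRCm38.p6 and 15 bases from the start on, 5′ to 3′ on the gene's strand, with the longest unbroken run of C and T in capitals. Rpl12 and Rpl28 were markers of the family. Rpl35, Rpl37, Rps10, Rps12, Rps15, Rps27 and Rps28 were called between the states. Rpl5 had one of the smallest differences between fractions, Rplp2 is a stalk protein, Rps6 is the S6 kinase substrate, and Rpl10l and Rpl22l1 are paralogs with lower values in EpiLC.
Rpl12 (chr2:32961697-32961726, plus strand): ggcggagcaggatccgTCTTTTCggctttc
Rpl28 (chr7:4792950-4792979, plus strand): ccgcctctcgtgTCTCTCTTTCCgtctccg
Rpl5 (chr5:107900513-107900542, plus strand): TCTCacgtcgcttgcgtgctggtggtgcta
Rplp2 (chr7:141447636-141447665, plus strand): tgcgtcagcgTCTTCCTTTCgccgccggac
Rpl10l (chr12:66284387-66284416, minus strand): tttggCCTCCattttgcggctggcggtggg
Rpl22l1 (chr3:28805493-28805522, plus strand): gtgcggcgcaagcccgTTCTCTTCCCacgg
Rpl35 (chr2:39005117-39005146, minus strand): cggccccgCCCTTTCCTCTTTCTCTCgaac
Rpl37 (chr15:5116598-5116627, plus strand): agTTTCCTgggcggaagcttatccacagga
Rps6 (chr4:86857353-86857382, minus strand): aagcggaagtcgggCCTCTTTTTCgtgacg
Rps10 (chr17:27635230-27635259, minus strand): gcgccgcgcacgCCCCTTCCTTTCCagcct
Rps12 (chr10:23787195-23787224, minus strand): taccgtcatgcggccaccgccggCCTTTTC
Rps15 (chr10:80292416-80292445, plus strand): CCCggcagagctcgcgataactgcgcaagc
Rps27 (chr3:90213634-90213663, minus strand): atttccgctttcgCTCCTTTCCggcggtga
Rps28 (chr17:33824548-33824577, minus strand): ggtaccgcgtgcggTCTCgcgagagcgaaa
The runs are 3 bases long in Rps15, 4 in Rpl5 and Rps28, 5 in Rpl10l, 6 in Rpl37, 7 in Rpl12 and Rps12, 9 in Rps27, 10 in Rplp2, Rps6 and Rpl22l1, 11 in Rpl28, 13 in Rps10 and 18 in Rpl35. RefSeq promoter sequences were matched for 63 of the 84 members. A run of at least 8 pyrimidines lay in this 30-base window in 27 of the 63 members (42.9%) and in 13.9% of 27025 genes. Among GENCODE transcripts, 22 of 84 members (26.2%) had at least 1 coding transcript that starts with C followed by 4 pyrimidines, against 6.0% of 11932 expressed protein-coding genes. Of the members printed above, Rpl37, Rps10 and Rps27 are among these 22. In the 300 bases around the start (250 before and 50 after), CCGGAAG, the core recognised by ETS-family factors, was found on either strand in 26 of 63 members (41.3%) and in 9.9% of all promoters. AAGATGGC, the core recognised by YY1, was found on either strand in 6 members (9.5%) and in 3.2% of all promoters. TATAAA on the sense strand was found in 6 members (9.5%) and in 9.8% of all promoters. These are matches of letters and were not tested as binding sites.

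Values are FPKM, fragments scaled by transcript length and by library size, as the authors deposited them in one table for each state. How library size was scaled was not given in the sources used here. The tables were normalized separately, so levels in different states are set side by side without a test. Low values of long genes fell close to whole multiples of a step, which gave 12.15 to 46.64 fragments per FPKM and kilobase, so the values of nearly all members rest on many fragments in every library. State markers followed the labels: 6 naive markers summed to 931.5 to 965.9 FPKM in nESC total RNA and to 33.61 to 36.33 in EpiLC total RNA, and 5 formative markers summed to 30.75 to 32.07 and to 1089 to 1124. Markers of fibroblasts (8 genes) summed to at most 28.3 FPKM in any library, those of primitive endoderm (6 genes) to at most 3.9, and those of trophectoderm (5 genes) to at most 25.4. The third EpiLC chromatin library stood apart from the other two: mt-Co1, a mitochondrial message, was at 6077 FPKM against 1894 and 1133, the secretory chaperone Hsp90b1 at 417.6 against 227.3 and 200.4, and the nuclear RNA Malat1 at 3565 against 5549 and 4520. EpiLC libraries numbered 3 differed in other fractions too. In cytoplasm, Hsp90b1 was at 85.03 FPKM against 37.96 and 35.17, and Hsp90aa1 at 675.5 against 290.3 and 281. In nucleoplasm, mitochondrial genes held 10.5% of the FPKM sum against 5.5% and 5.4%. Their part in the members' values was not tested. In nESC nucleoplasm, Malat1 was listed at 0 in the third library and at 3590 or more in the other two, which is one of 15 such isolated zeros over all genes; none of them was in a member.

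Ribosomal protein mRNAs held a large part of the cytoplasmic signal and a small part of the chromatin signal in both states. In nESC, the 84 genes held 10.9% of the FPKM sum in chromatin (range 9.8 to 12.0), 30.7% in nucleoplasm (30.0 to 31.2), 38.4% in cytoplasm (37.7 to 39.1) and 33.7% in total RNA (33.2 to 34.2). In EpiLC, they held 12.3% in chromatin (9.7 to 16.9), 22.1% in nucleoplasm (21.0 to 22.6), 32.0% in cytoplasm (31.4 to 32.4) and 27.0% in total RNA (26.8 to 27.2). The highest chromatin share, 16.9%, was in the third EpiLC library, against 9.7% and 10.3% in the others. Chromatin libraries lay below the libraries of every other fraction of their state without overlap, and the share in EpiLC nucleoplasm, cytoplasm and total RNA lay below that in nESC without overlap.

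**Figure D1:**
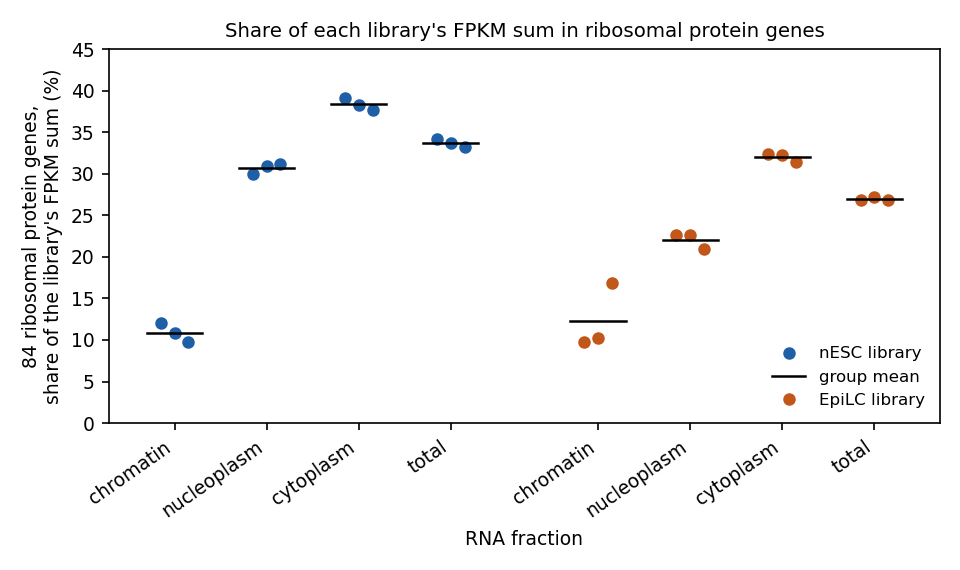
Share of each library's FPKM sum held by the 84 ribosomal protein genes (y axis, percent) in chromatin, nucleoplasm, cytoplasm and total RNA (x axis) of nESC (blue) and EpiLC (orange); points are libraries and bars are means of 3. Chromatin sits lowest in both states (9.7 to 16.9%), cytoplasm highest (31.4 to 39.1%), and 1 EpiLC chromatin library lies above the other two.

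Levels differed widely among the members, although their proteins are used in nearly equal numbers. In total RNA of nESC the highest mean was that of Rpl13a, a large-subunit protein also known for a role in inflammatory translation control, at 14630 ± 1136 FPKM (SD, n = 3), followed by Rpl41 at 12690, Rplp1 at 9536, Rps12 at 9395 and Rps29 at 9145. The 10 highest members held 29.2% of the members' sum. In EpiLC total RNA the 10 highest held 32.4%, led by Rpl41, Rps27, Rps28, Rps29 and Rpl13a. The median over the members, averaged over the libraries of a group, was 543.7 FPKM in chromatin, 2069 in nucleoplasm, 6449 in cytoplasm and 3248 in total RNA of nESC, and 576.7, 1718, 4894 and 2142 in EpiLC. The EpiLC chromatin mean came from library medians of 473.2, 474.5 and 782.3 FPKM and was 473.9 without the third. At the other end stood Rpl3l, the paralog of Rpl3 used in striated muscle, at 0 to 2.92 FPKM over the 24 libraries. It stayed below the mean of 1 FPKM required for testing, so 83 of the 84 members were tested. The next lowest was Rpl6l, annotated as a processed pseudogene of Rpl6, at 0.371 to 7.95 FPKM.

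In deposited FPKM, the order chromatin, nucleoplasm, cytoplasm held for almost every member. In nESC, 83 of 84 members had all chromatin libraries below all nucleoplasm libraries and all nucleoplasm libraries below all cytoplasm libraries, which was so for 24.2% of all tested genes. In EpiLC it was again 83 of 84, against 22.9% of all tested genes. The exception was Rpl12 in both states, and in EpiLC its group means still rose in that order. Because FPKM sums differ between libraries, these orders need not be those of shares of a library's signal. With every library scaled to one FPKM sum, the median log2 fold of nucleoplasm over cytoplasm over the tested members was −0.31 in nESC and −0.41 in EpiLC. As deposited it was −1.58 and −1.45. On one sum Rpl7l1 was among the members above 0 in both states, so the order did not hold for them. The amount of RNA per cell in each fraction was not measured. In such bulk libraries, fewer cells of a type and less RNA per cell cannot be told apart.

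**Figure D2:**
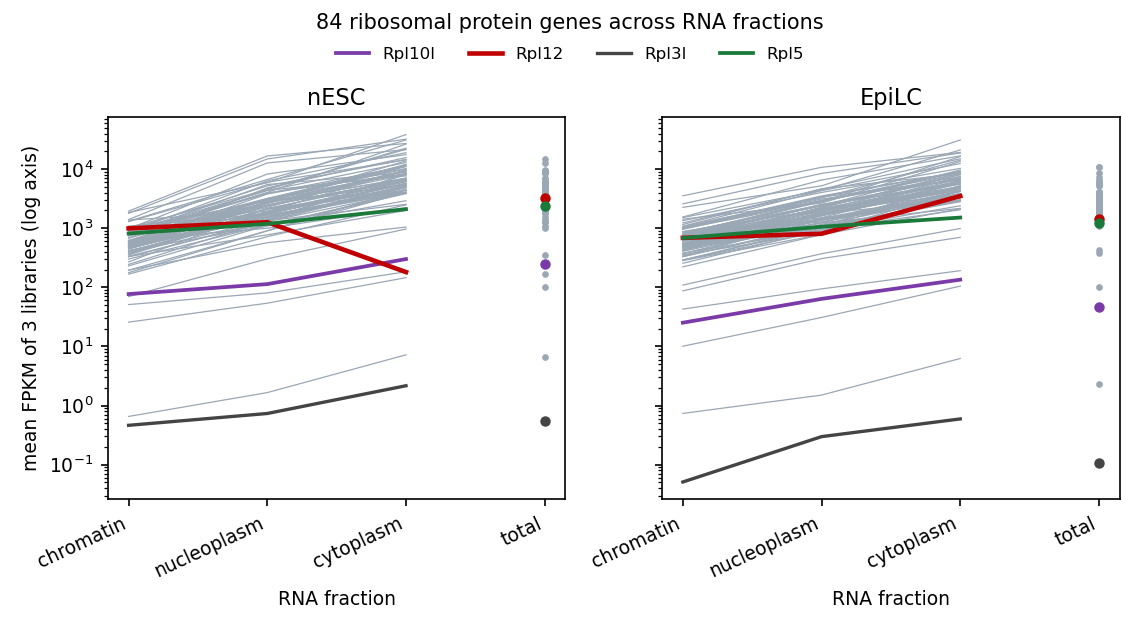
Mean FPKM (y axis, log scale) of each of the 84 genes in chromatin, nucleoplasm and cytoplasm (lines) and in total RNA (points) of nESC (left) and EpiLC (right), each the mean of 3 libraries. Nearly all lines climb from chromatin to cytoplasm in the deposited values. Rpl12 (red) drops to 181 FPKM in nESC cytoplasm, and Rpl3l (dark grey) lies far below the rest.

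Chromatin was compared with cytoplasm in nESC first, on log2(FPKM + 0.5) with limma over the 12592 genes that averaged 1 FPKM or more; calls required 2-fold or more and an adjusted p (Benjamini-Hochberg) under 0.05. Of 83 members tested, 82 were lower in chromatin and 1, Rpl12, was higher, beside 29.7% of all genes called lower and 31.8% called higher. The members' median log2 fold was −3.79, and that of all genes 0.04. The stalk proteins, which recruit translation factors to the large subunit, were spread over the family. Rplp1 was at 913.4, 775.6 and 618.1 FPKM in chromatin and at 29030, 24720 and 25910 in cytoplasm. These groups lay far apart, and the log2 fold of −5.12 (SE 0.13) was the lowest of the family. Rplp2 had −4.18, while Rplp0, the anchor of the stalk, had −3.41, above the members' median.

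Rps14, a small-subunit protein whose human counterpart is lost in the 5q- syndrome, was at 802.4, 712.3 and 550 FPKM in nESC chromatin and at 24990, 19710 and 20250 in cytoplasm, without overlap. Its log2 fold was −4.98 (SE 0.14, limma adjusted p = 1.72e-12). Rpl28, a large-subunit protein, was at 216.2, 164.4 and 150.2 FPKM in chromatin and at 4015, 4042 and 4102 in cytoplasm. Here the cytoplasm libraries were nearly equal and the log2 fold was −4.53 (SE 0.11, limma adjusted p = 8.03e-13). Rpl36 (−4.76) and Rps3 (−4.69), a small-subunit protein of the mRNA entry site that also acts in DNA repair, completed the 4 lowest. At the upper end, after Rpl12, came Rpl5, which binds 5S ribosomal RNA and, with Rpl11, inhibits Mdm2. Rpl5 was at 823.1, 849.8 and 768.1 FPKM in chromatin and at 2286, 2017 and 2002 in cytoplasm. The libraries did not overlap, but the log2 fold was only −1.37 (SE 0.08, limma adjusted p = 2.39e-09), while its partner Rpl11 had −3.86. Rpl4, which lines part of the exit tunnel, followed at −1.83, and Rpl7l1, the paralog of Rpl7 that acts in ribosome assembly, at −1.85.

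EpiLC gave the same contrast with a smaller median. All 83 members tested were lower in chromatin than in cytoplasm, beside 28.4% of 12834 genes called lower and 29.1% higher, with a median log2 fold of −3.28 and −0.00 for all genes. Without the third chromatin library the members' median was −3.56. Rplp1 (493.7, 495.3 and 1348 FPKM in chromatin, 16650, 17300 and 14990 in cytoplasm) was again lowest at −4.56 (SE 0.30). The third chromatin library was more than 2-fold above the others and still far below every cytoplasm library. Rplp2 at −4.17, Rps16 at −4.02 and Rps14 at −3.98 came next, and Rpl28 had −3.94 (SE 0.17). Rpl5 was highest, with 669.2, 655.4 and 723.1 FPKM in chromatin against 1500, 1546 and 1499 in cytoplasm, a log2 fold of −1.15 (SE 0.09, limma adjusted p = 5.69e-08). Its libraries did not overlap either. Rpl4 at −2.05 and Rpl7l1 at −2.14 stood beside it, as in nESC.

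The size of these folds depends on the scale of the libraries, since the FPKM sums ran from 432706 to 1980223. With every library scaled to one FPKM sum, the median of all genes moved to 1.85 in nESC and 1.69 in EpiLC, and that of the members to −1.82 and −1.44, with 67 and 64 members called lower. On that scale Rpl4 (0.14), Rpl5 (0.61), Rpl7l1 (0.11) and Rpl10l (0.00) turned above 0 in nESC, the last by less than 0.01, and Rpl5 (0.69) did so in EpiLC. The distance between the members' median and that of all genes was −3.83 as deposited and −3.67 on one sum in nESC, and −3.28 and −3.13 in EpiLC. A correction for exonic length and for GC content gave medians of −2.65 and −2.34.

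Nucleoplasm lay between chromatin and cytoplasm. In nESC, 72 of 83 members were lower in nucleoplasm than in cytoplasm, 1 (Rpl12) was higher and 10 were not called, beside 19.5% of all genes called lower and 20.5% higher; the median log2 fold was −1.58, and −0.08 for all genes. In EpiLC, 76 were lower and 7 were not called, beside 19.1% of all genes called lower and 20.1% higher, with a median of −1.45 and −0.15 for all genes. On one FPKM sum the calls lower fell to 8 in nESC and 12 in EpiLC, with medians of −0.31 and −0.41. Medians of all genes were then 0.98 and 0.71, and the shares above are for the deposited scale. The strongest differences were in Rplp1 (−2.71), Rpl13a (−2.70), Rpsa (−2.60) and Rps2 (−2.53), which sits at the mRNA entry, in nESC, and in Rps2 (−2.59), Rpl41 (−2.58), Rplp1 (−2.54) and Rps12 (−2.33) in EpiLC. Rpsa, the small-subunit protein also known as the laminin receptor, was at 1388, 1350 and 1337 FPKM in nESC nucleoplasm and at 8803, 7837 and 8159 in cytoplasm. Its nucleoplasm libraries lay above its chromatin libraries (1222, 1021 and 775.8 FPKM) without overlap. As deposited, its log2 fold was −0.46 between chromatin and nucleoplasm and −2.60 between nucleoplasm and cytoplasm.

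Members that were not called between nucleoplasm and cytoplasm in nESC were Rpl30 (−0.39), Rps26 (−0.67), Rps27 (−0.70), Rps29 (−0.75), Rpl23a (−0.81), Rpl5 (−0.82), Rpl22l1 (−0.88), Rps27l (−0.93), Rpl39 (−0.93) and Rpl23 (−0.94); all of these log2 folds missed the 2-fold limit and none was above 0. In EpiLC they were Rpl5 (−0.52), Rpl7 (−0.69), Rpl30 (−0.79), Rpl4 (−0.81), Rps27 (−0.84), Rps26 (−0.85) and Rpl23a (−0.97), of which Rpl5, Rpl30, Rps27, Rps26 and Rpl23a stand in both lists. These directions hold only as deposited. On one FPKM sum the members' median moved from −1.58 to −0.31 in nESC and from −1.45 to −0.41 in EpiLC. All of the folds listed here then lie above 0 in both states, among them Rps27 (0.20) and Rpl4 (0.22) in EpiLC. Rps27, a zinc-finger protein of the small subunit, was at 18160, 16270 and 15660 FPKM in nESC nucleoplasm and at 28530, 24790 and 28190 in cytoplasm. Its libraries did not overlap, and it was the highest member in nucleoplasm in both states.

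Chromatin against nucleoplasm, which shares its libraries with the contrasts above, separated members in another order. In nESC, 72 of 83 members were lower in chromatin, and 11 were not called, beside 17.3% of all genes called lower and 17.4% higher, with a median log2 fold of −2.10 and 0.02 for all genes; in EpiLC, 76 were lower and 7 not called, beside 16.7% and 16.0% of all genes, with medians of −1.79 and −0.07. Without the third EpiLC chromatin library the members' median there was −2.04. On one FPKM sum, 60 and 40 were lower, with medians of −1.40 and −0.99 beside 0.69 and 0.69 for all genes. The shares of all genes given here are for the deposited scale. The lowest in nESC were Rps29 (−3.20), Rps27 (−3.11), Rps21 (−3.10), Rpl36 (−3.06) and Rps28 (−3.06), mRNAs of 345 to 394 nucleotides, 4 of the 5 from the small subunit. Rps29 was at 1631, 1463 and 1105 FPKM in nESC chromatin, 12770, 12830 and 12580 in nucleoplasm and 21360, 20870 and 21940 in cytoplasm. No library overlapped between these fractions, and the step from chromatin to nucleoplasm was the larger one. Members not called in nESC were Rpl12 (−0.36), Rpsa (−0.46), Rpl3 (−0.51), Rpl5 (−0.55), Rpl10l (−0.56), Rpl10 (−0.57), Rpl7l1 (−0.67), Rpl4 (−0.68), Rpl10a (−0.68), Rpl27a (−0.88) and Rpl6l (−0.91). In EpiLC they were Rpl12 (−0.24), Rpl5 (−0.63), Rpl27a (−0.71), Rpl6l (−0.72), Rpl10a (−0.84), Rpsa (−0.86) and Rps12 (−0.98). Rpl12, Rpl5, Rpl27a, Rpl6l, Rpl10a and Rpsa missed the call in both states.

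Cytoplasm and total RNA were closer to each other. Shares of all genes below are for calls on the deposited scale, and none is given for an unadjusted p. In nESC, 44 of 83 members were higher in cytoplasm than in total RNA, 1 (Rpl12) was lower and 38 were not called, beside 16.0% of all genes called higher and 19.4% lower, and the median log2 fold was 1.01 against 0.11 for all genes; on one FPKM sum no member was called higher by limma, 2 were lower and the median was 0.05, with 31 higher and 24 lower at an unadjusted p under 0.05 and any fold. In EpiLC, 66 were higher and 17 were not called, beside 12.7% of all genes called higher and 17.6% lower, with a median of 1.18 against 0.16; on one FPKM sum limma called none and the median was 0.18, with 23 higher and 4 lower at an unadjusted p under 0.05. Rpl28 stood among the highest in both states, with 1137, 993.6 and 1108 FPKM in nESC total RNA against the cytoplasm values above (log2 fold 1.91) and with 1308, 1118 and 1197 against 4939, 4276 and 3880 in EpiLC (1.85). Its cytoplasm libraries were all above its total libraries. Rps28 (1.91), Rps15 (1.74) and Rps10 (1.69) in nESC and Rps2 (1.85) and Rpl13a (1.71) in EpiLC were also high. Rpl5 was at the other end, at 2452, 2461 and 2202 FPKM in nESC total RNA, level with or above its cytoplasm libraries (log2 fold −0.18, limma adjusted p = 0.0618). In EpiLC it had 0.29 as deposited and −0.71 on one FPKM sum.

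Rpl12 went against the family in nESC and with it in EpiLC. Its product sits at the base of the stalk, where translation factors dock. The gene lies on chromosome 2 at 32961559 to 32965345 of GRCm38, on the plus strand, has 7 exons in the annotated mRNA used here, and carries the small nucleolar RNA Snora65 in an intron. In nESC it was at 1165, 1018 and 798.7 FPKM in chromatin, at 1205, 1219 and 1363 in nucleoplasm, at 191.4, 180.1 and 171.6 in cytoplasm and at 3449, 3256 and 3208 in total RNA. The cytoplasm libraries were the lowest and the total libraries the highest, with no overlap between either and any other group. In EpiLC it was at 594.3, 673.1 and 796.5 FPKM in chromatin, at 838.7, 793.2 and 785.9 in nucleoplasm, at 3682, 3755 and 3054 in cytoplasm and at 1468, 1425 and 1436 in total RNA. Here cytoplasm was highest, as for the other members, and only chromatin and nucleoplasm overlapped.

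The log2 fold of Rpl12 in chromatin against cytoplasm was 2.44 (SE 0.12, limma adjusted p = 2.48e-10) in nESC and −2.35 (SE 0.12, limma adjusted p = 2.3e-09) in EpiLC. Between cytoplasm and total RNA it was −4.19 (SE 0.12, limma adjusted p = 3.43e-11) in nESC and 1.27 in EpiLC. Between chromatin and nucleoplasm it was −0.36 and −0.24 and not called in either state. The group at odds with the rest was thus nESC cytoplasm, whose 3 libraries lay close together, between 171.6 and 191.4 FPKM. Rpl12 was the only member with every total library above every library of the 3 fractions, in nESC, which was so for 8.72% of all tested genes, and no member showed it in EpiLC, where 1.82% of genes did. A total mean more than 2 times that of each fraction was rarer, at 61 of 12592 genes (0.5%) in nESC. Hsp90aa1, a cytosolic chaperone and not a member, had a like gap, at 1.315, 2.63 and 1.745 FPKM in nESC cytoplasm and at 4168, 4203 and 4472 in total RNA. All of Rpl12's coding 50-base words occur in 3 annotated copies, none of which is listed in the tables; what part the assignment of reads had in these values was not tested.

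**Figure D3:**
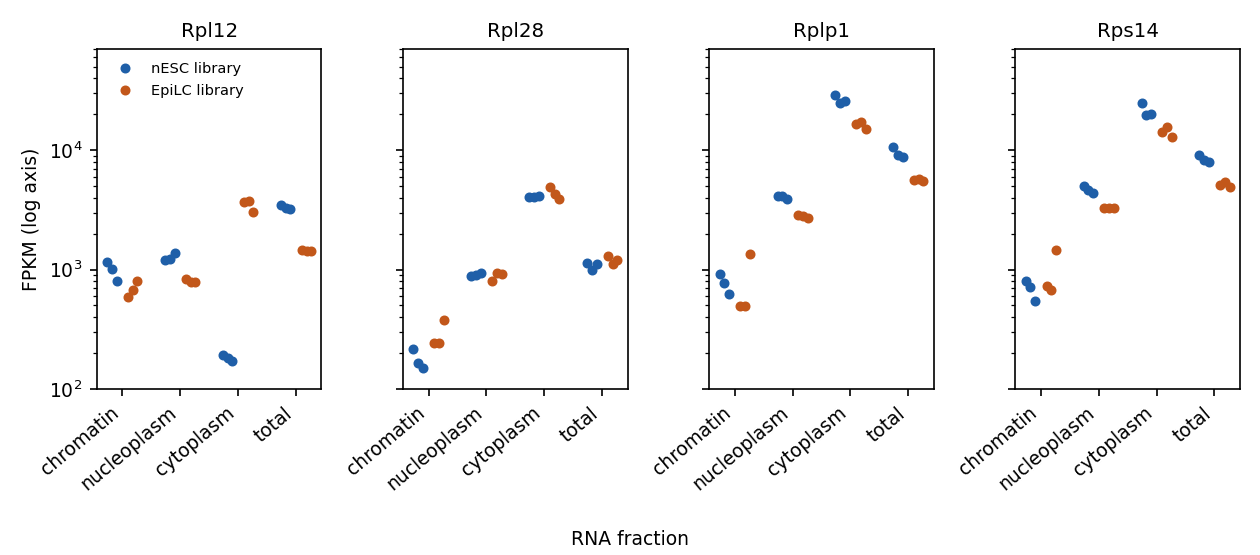
FPKM (y axis, log scale) of Rpl12, Rpl28, Rplp1 and Rps14 in each library (points) of the 4 RNA fractions (x axis), nESC in blue and EpiLC in orange. Rpl28, Rplp1 and Rps14 climb from chromatin to cytoplasm in both states, while Rpl12 is at 171.6 to 191.4 in nESC cytoplasm and at 3054 to 3755 in EpiLC cytoplasm.

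The folds of the 2 states were then compared directly, in one limma fit over all 24 libraries and 11704 genes with each library centred on its median. In chromatin against cytoplasm the difference (EpiLC minus nESC) was above 0 in 73 of 83 members, with a median of 0.55 and −0.02 for all genes; on one FPKM sum the medians were 0.32 and −0.21. Of the members, 9 were called higher in EpiLC and 1 lower, beside 5.25% of all genes called higher and 4.41% lower. The 9 were Rps27 (1.37), Rps10 (1.33), Rpl35 (1.26), Rps12 (1.26), Rpl36 (1.25), Rps28 (1.22), Rps15 (1.14), Rps14 (1.10) and Rpl37 (1.04). They hold 6 members of the small and 3 of the large subunit, of 32 and 51 tested. The 1 called lower was Rpl12, at −4.69 (SE 0.18, limma adjusted p = 4.94e-14). This result leaned on the third EpiLC chromatin library: without it the median was 0.25, 59 of 83 were above 0, and the calls were Rpl12 (−4.82), Rps10 (1.08) and Rpl35 (1.07). Without the first or the second, the medians were 0.72 and 0.68, with 16 members called each time. In the same contrast 5 of 13 mitochondrial genes were called higher in EpiLC and none lower (median 0.70), and none of 8 secretory-pathway genes was called, 2 having an unadjusted p under 0.05 (median 0.42). Their part in the members' difference was not tested.

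Rps10 and Rpl35 were the members called higher with and without that library. Rps10, a small-subunit protein near the mRNA entry, was at 559.7, 494.7 and 380 FPKM in nESC chromatin and at 12770, 10940 and 11550 in nESC cytoplasm. In EpiLC it was at 553.1, 576.4 and 922.7 in chromatin and at 7090, 7335 and 6656 in cytoplasm, so the cytoplasm libraries of the 2 states did not overlap while those of chromatin did. Rpl35, a large-subunit protein at the tunnel exit, was at 236.4, 174.9 and 171.7 FPKM in nESC chromatin and at 5033, 4354 and 4409 in cytoplasm. In EpiLC it was at 315.2, 301.6 and 445.8 in chromatin and at 3781, 3935 and 3422 in cytoplasm, so that both fractions lay apart between the states, in opposite directions. When the third EpiLC libraries of both chromatin and cytoplasm were left out, the calls were Rpl12 (lower), Rpl39l (lower) and Rps10 (higher), with a median of 0.17.

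**Figure D4:**
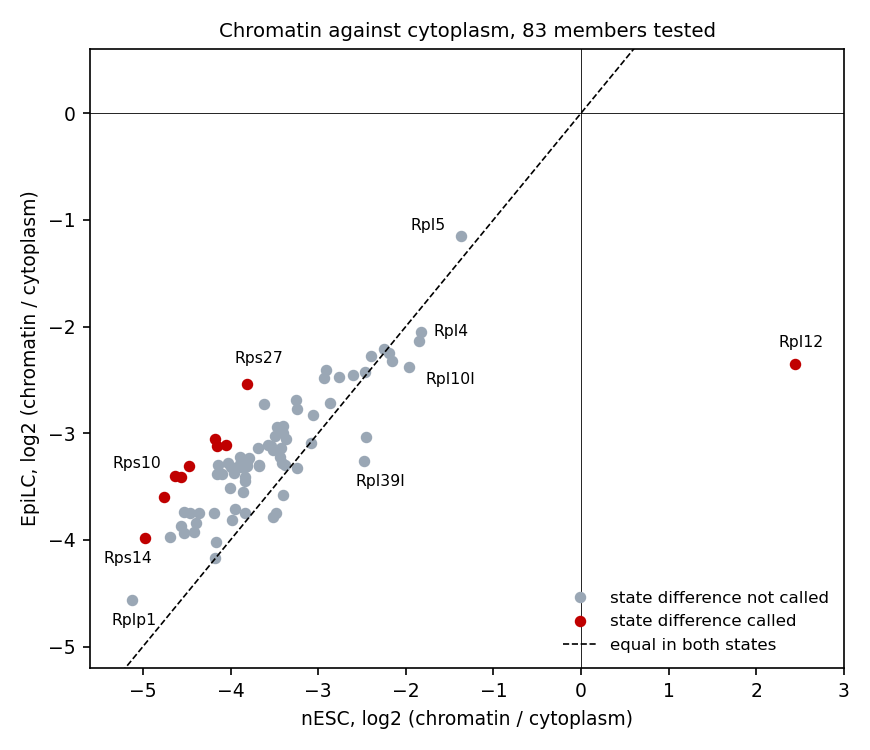
Log2 fold of chromatin over cytoplasm in nESC (x axis) and EpiLC (y axis) for the 83 members tested; red points are the 10 members whose difference between the states was called by limma, and the dashed line marks equal folds. Most points lie in the lower left quadrant (4 members in nESC and 1 in EpiLC move above 0 when libraries are scaled to one sum), and Rpl12 lies alone at the right.

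In nucleoplasm against cytoplasm limma called only Rpl12 between the states, at −4.84 (SE 0.18, limma adjusted p = 2.56e-14), beside 1.48% of all genes called lower in EpiLC and 1.07% higher. At an unadjusted p under 0.05 and any fold, 17 members were higher and 1 lower, or 6 and 12 on one FPKM sum. The share of all genes under this looser rule is not given here, so such counts have no background beside them. The median difference over the members was 0.16 as fitted and −0.14 on one FPKM sum. In cytoplasm against total RNA, limma called 4 of 83 members higher in EpiLC and none lower (12 and 2 at an unadjusted p under 0.05), beside 2.32% of all genes called higher and 5.71% lower, with a median of 0.09. They were Rpl12 (5.37, limma adjusted p = 3.34e-15), Rpl10l (1.11, limma adjusted p = 0.000186), Rps15a (1.06, limma adjusted p = 0.0142) and the annotated pseudogene Rpl6l (1.03, limma adjusted p = 0.0233). Rps15a, a small-subunit protein, was at 5589, 5357 and 3006 FPKM in nESC total RNA and at 1877, 1800 and 1826 in EpiLC total RNA; the third nESC library was low, so the spread within nESC is large. Across the 83 members, the folds of the 2 states were related in chromatin against cytoplasm (Pearson r = 0.75, Spearman rho = 0.81, r = 0.86 without Rpl12) and less so in cytoplasm against total RNA (0.34 and 0.54, r = 0.59 without Rpl12); members are not independent replicates and these values are descriptions.

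Levels in total RNA were lower in EpiLC for most members as deposited. Set side by side without a test, 76 of 83 members had a lower mean log2 value in EpiLC and 7 a higher one; the median was −0.61, −0.38 on one FPKM sum and −0.58 with libraries centred, and that of all genes was −0.01 as deposited. Values at least 2-fold lower were seen in 12 members, beside 10.4% of 11704 genes, or in 5 members on one FPKM sum, beside 7.18% of genes, and no member was 2-fold higher, beside 13.4% of genes. The median difference was −0.40 in cytoplasm, −0.34 in nucleoplasm and 0.03 in chromatin. The chromatin value was −0.23 without the third EpiLC library, with 61 of 83 members lower in EpiLC, and −0.06 without the third nESC library. It was 0.14 to 0.19 without the first library of nESC or the first or second of EpiLC. The 7 with higher values in EpiLC total RNA were Rpl29 (0.33), Rps27 (0.31), Rps26 (0.31), Rpl28 (0.16), Rps15 (0.13), Rps27l (0.03) and Rps28 (0.03). Rpl29 was at 346.4, 326 and 368.6 FPKM in nESC and at 449.7, 411.5 and 447.8 in EpiLC, without overlap. Rps26, which touches the mRNA at the exit channel, was at 3005, 2764 and 3562 and at 3919, 3518 and 4069, with overlap. The largest drops were in Rpl10l (−2.38), Rpl22l1 (−1.40), Rps20 (−1.37), Rpl6l (−1.34) and Rps15a (−1.29). Rps20, a small-subunit protein of the mRNA entry side, was at 3382, 3351 and 3365 FPKM in nESC and at 1440, 1245 and 1234 in EpiLC, far apart and with little spread.

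**Figure D5:**
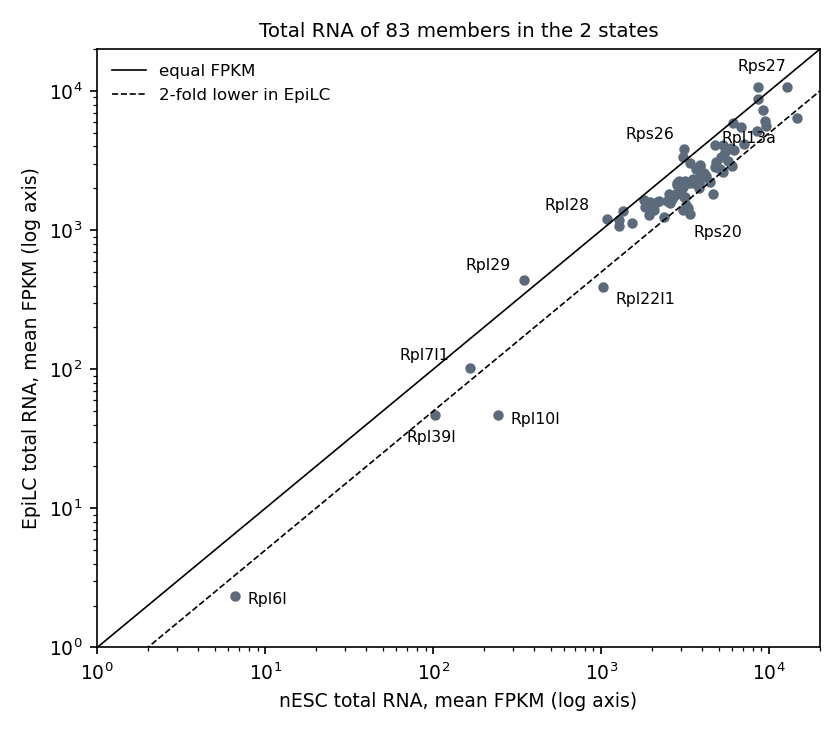
Mean FPKM in total RNA of nESC (x axis, log scale) and EpiLC (y axis, log scale) for 83 members, each point a gene and each value the mean of 3 libraries; the solid line marks equal values and the dashed line a level 2-fold lower in EpiLC. As deposited, 76 points lie below the solid line (71 on one FPKM sum), with Rpl10l and Rpl22l1 farthest below it among the expressed protein-coding members.

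Paralogs were set beside their parent genes, again without a test between the states. Rpl10l is a single-exon gene on chromosome 12 (66283379 to 66284401 of GRCm38, minus strand), a retrotransposed copy of the X-linked Rpl10 that replaces it in male germ cells. It was at 257.7, 241.8 and 231.7 FPKM in nESC total RNA and at 48.5, 44.78 and 46.32 in EpiLC total RNA, far apart, while Rpl10 was at 1862, 1785 and 1959 and at 1517, 1430 and 1535. Its chromatin level followed, at 82.88, 80.74 and 67.26 FPKM in nESC and at 22.06, 25.99 and 27.61 in EpiLC. In every fraction the nESC and EpiLC libraries of Rpl10l lay apart, and 12.5% of its coding 50-base words are shared with another gene. Rpl22l1, the paralog whose own splicing and level are held down by Rpl22, was at 1037, 1069 and 966.6 FPKM in nESC total RNA and at 409.9, 394.2 and 359.5 in EpiLC. Rpl22 itself was at 2850, 3085 and 2738 and at 2262, 2212 and 2252, so both had lower values in EpiLC and the paralog by more (log2 −1.40 against −0.37). Rpl39l, a paralog best known from testis, was at 104.9, 105.7 and 97.65 FPKM and at 47.8, 46.35 and 47.21 (log2 −1.12), while Rpl39 had −0.72. Rpl7l1 went from 171.2, 171.1 and 154.2 to 99.63, 102.9 and 101.9 FPKM (log2 −0.70), while Rpl7 had −0.93. Rps27l, a p53 target gene, differed from this pattern, at 1339, 1409 and 1317 FPKM in nESC and 1393, 1381 and 1374 in EpiLC, with overlapping libraries. Differences between paralog and parent were not tested.

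As deposited, both paralogs and parents were lower in chromatin than in cytoplasm. On one FPKM sum the nESC folds of Rpl10l (0.00) and Rpl7l1 (0.11) turned above 0. In nESC chromatin against cytoplasm, log2 folds were −1.96 for Rpl10l and −2.19 for Rpl10, −2.45 for Rpl22l1 and −3.96 for Rpl22, −2.48 for Rpl39l and −3.43 for Rpl39, −1.85 for Rpl7l1 and −2.91 for Rpl7, and −3.40 for Rps27l and −3.81 for Rps27. The paralog had the smaller fold in each of these pairs. In EpiLC the folds were −2.38 and −2.25, −3.04 and −3.37, −3.26 and −3.14, −2.14 and −2.41, and −3.58 and −2.54 for the same pairs, so the order was not kept in all. Rpl39 was at 237.7, 266.8 and 853.2 FPKM in EpiLC chromatin and Rpl39l at 10.51, 9.073 and 10.7, so the order of this pair leans on the third library.

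Features of the genes were set beside the folds as descriptions. Mature mRNAs of the members had a median length of 777.5 nucleotides (345 to 5130), with coding sequences of 75 nucleotides in Rpl41 up to 1257. The chromatin against cytoplasm fold in nESC was lower for members with higher total RNA (Spearman rho = −0.51, n = 83) and with higher mRNA GC content (−0.37), and higher for longer mRNAs (0.32); in EpiLC these values were −0.35, −0.21 and 0.18. Chromatin against nucleoplasm was more closely related to mRNA length (0.59 in nESC and 0.42 in EpiLC), and cytoplasm against total RNA to GC content (0.55 and 0.57). All of these relations use the same libraries, and short or GC-rich mRNAs can be counted less evenly. The 30 members that carry a small nucleolar RNA had a median of −3.53 in nESC chromatin against cytoplasm and the others −3.81, and in EpiLC −3.21 and −3.28. The 22 members with an annotated transcript that starts with C and 4 pyrimidines had −3.86 and the others −3.67 in nESC, and −3.29 and −3.27 in EpiLC. This split follows annotated starts and does not part TOP from other mRNAs. The others include Rpl28 and Rps6, with runs of 11 and 10 pyrimidines around the RefSeq start, while Rpl10, among the 22, has 3. Large-subunit and small-subunit members had −3.69 and −3.82 in nESC and −3.23 and −3.30 in EpiLC. The 26 members with mRNAs of at most 600 nucleotides had −3.96 and the others −3.52 in nESC, and −3.31 and −3.22 in EpiLC. Differences between these medians were not tested.

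Other parts of the translation machinery were read from lists chosen by function. The 4 cytosolic ribosomal proteins with names outside the rule were all lower in chromatin than in cytoplasm in both states, among them Fau, the precursor of eS30 (−4.46 in nESC and −3.69 in EpiLC), the paralog Rpl36al (−3.06 and −2.90) and the scaffold Rack1 (−2.59 and −2.57). All 7 genes of the elongation factor list were lower, with medians of −2.71 and −2.67, among them Eef2 (−3.11 and −2.67) and Eef1a1 (−2.27 and −1.68). Of 18 further genes with TOP messages, 13 were lower, 2 higher and 3 not called in each state, with medians of −1.92 and −1.75. Tpt1 was lower (−1.99 and −1.59), while poly(A)-binding protein Pabpc1 (2.44 and 1.46) and the helicase gene Eif4a2 (2.86 and 2.28) were higher in chromatin. The lists share members: elongation factors also stand in the TOP list.

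Genes of the mTOR axis were mixed, with 3 higher, 1 lower and 4 not called of 8 tested in nESC and 3, 3 and 3 of 9 in EpiLC. Larp1 was higher in chromatin (1.61 and 1.44), as was the S6 kinase gene Rps6kb1 (2.22 and 2.25), and Eif4ebp1, the translation inhibitor, was lower (−2.88 and −2.81). Among 24 ribosome biogenesis factors, 6 were higher, 8 lower and 10 not called in nESC and 3, 11 and 10 in EpiLC, with medians of −0.42 and −0.71. Nucleolin (Ncl, 2.17 and 1.61) was higher and fibrillarin (Fbl, −2.69 and −2.97) lower. Noncoding hosts of small nucleolar RNAs had 5 higher, 2 lower and 3 not called of 10 in nESC and 3, 2 and 5 in EpiLC, with Gas5, itself a TOP transcript, at 4.57 and 2.98. On one FPKM sum the median of all genes moved upward by the amounts given above, so the calls of these lists are relative to the deposited scale.

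Near-identical copies limit how exactly reads can be assigned to a member. Of 84 members, 69 share at least 50% of their coding 50-base words with another annotated gene, 29 share all of them, and the median is 90.3%. For 23 members, at least 1 copy that shares 50% or more of the words by itself is listed in the tables. Rps12-ps3 shares all of these words with Rps12 and had a mean of 2608 FPKM in nESC cytoplasm, Gm10020 shares 82.9% with Rpl15 and had 1685, and Rps2-ps6 shares 54.6% with Rps2 and had 4019. Gm2000 shares 84.4% with Rpl35, which was called between the states, and had 515.8 FPKM in nESC cytoplasm and 338.7 in EpiLC cytoplasm. The levels of Rps12, Rpl15, Rps2, Rpl35, Rps27 (with Rps27rt) and Rpl10 (with Rpl10-ps3) are uncertain to the extent that reads were split between them and these copies. Across the members, the nESC chromatin against cytoplasm fold had a Spearman rho of 0.00 (n = 83) with the share of such words.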

How the data were processed

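The authors deposited FPKM values; the submitters' processing notes name TopHat2, Cuffnorm and mm10. The versions, the annotation and the normalization option were not given in the sources used here. Each deposited table holds the 12 libraries of one state. From these FPKM, log2(FPKM + 0.5) was tested with limma 3.58.1 in R 4.3.3 (eBayes with trend, two-sided), for genes averaging 1 FPKM or more, with the 4 fractions of a state fitted together. Calls needed 2-fold or more and an adjusted p (Benjamini-Hochberg) under 0.05. The fit was tested on simulated data. The state difference used all 24 libraries, each centred on its median. Annotation came from GENCODE M21 and RefSeq on GRCm38. Deviations of same-numbered libraries were weakly correlated, and numbers were not used as pairs in the main fits. The labels do not say whether such libraries share a culture. Members and lists were chosen with earlier results of these data known. Named were the 4 family markers, the lowest and highest 4 folds, members not called or against the family, paralogs, state calls, extreme levels, and up to 4 genes of each other list. Alternatives covered pseudocount, filter, scale, trend, block, length and GC, isolated zeros and left-out libraries. Some genes that this rule names are not reported here.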

Additional observations from a re-analysis of the deposited data

Results flagged for a closer look

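In a test of the difference between the states (EpiLC minus nESC, limma over all genes), 15 values passed the threshold. In chromatin against cytoplasm they were Rpl12 at −4.69 (adjusted p = 4.94e-14), Rps27 at 1.37 (0.00216), Rps10 at 1.33 (0.000138), Rpl35 at 1.26 (3.45e-05), Rps12 at 1.26 (0.000569), Rpl36 at 1.25 (0.00313), Rps28 at 1.22 (0.0149), Rps15 at 1.14 (0.00151), Rps14 at 1.10 (0.00638) and Rpl37 at 1.04 (0.0114). Without the third EpiLC chromatin library only Rpl12, Rpl35 and Rps10 of these were called. In nucleoplasm against cytoplasm it was Rpl12 at −4.84 (limma adjusted p = 2.56e-14). In cytoplasm against total RNA they were Rpl12 at 5.37 (limma adjusted p = 3.34e-15), Rpl10l at 1.11 (0.000186), Rps15a at 1.06 (0.0142) and Rpl6l at 1.03 (0.0233). The 3 Rpl12 values share the nESC cytoplasm libraries.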

How the results depend on the processing

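Calls depended most on the scale of the libraries. Shares of all genes called by limma are given above for the main fits only, not for other scales or left-out libraries. With every library scaled to one FPKM sum, members called in nESC nucleoplasm against cytoplasm were 9 in place of 73, in nESC cytoplasm against total RNA 2 in place of 45 (0 higher and 2 lower), in EpiLC nucleoplasm against cytoplasm 12 in place of 76, in EpiLC chromatin against nucleoplasm 40 in place of 76, in EpiLC cytoplasm against total RNA 0 in place of 66, and in the state difference of chromatin against cytoplasm 6 in place of 10. With one sum over the genes that are not members they were 12, 4, 19 and 0 for nucleoplasm against cytoplasm and cytoplasm against total RNA of nESC and then EpiLC. After correction for length and GC content they were 41, 18, 28 and 15 in that order, and 2 in place of 4 for the state difference of cytoplasm against total RNA, which was also 2 with a minimum mean of 5 FPKM. The cause of these changes was not tested. Some folds of named members with a call on either scale turned above 0 on one sum. In nESC chromatin against cytoplasm they were Rpl10l (0.00), Rpl4 (0.14), Rpl5 (0.61) and Rpl7l1 (0.11), and in EpiLC Rpl5 (0.69). In nucleoplasm against cytoplasm they were Rpl7l1 in nESC (0.08) and EpiLC (0.01). Over all comparisons, 89 further values of named members changed sign on one sum without a call. With the sum of other genes Rpl5 had 0.07 and 0.32 in chromatin against cytoplasm. Leaving out 1 library at a time gave 3 to 16 calls for the state difference of chromatin against cytoplasm, 2 to 5 for cytoplasm against total RNA and 1 to 1 for nucleoplasm against cytoplasm. For chromatin against cytoplasm it gave 83 to 83 in both states. Leaving out both EpiLC libraries numbered 3 of chromatin and cytoplasm gave 3 calls for the former (1 higher, 2 lower), with fewer samples in the fit. The level difference in total RNA was −0.38 on one sum and −0.58 centred, against −0.61. In chromatin, where leaving out 1 library at a time was chosen after seeing the data, it ran from −0.23 to 0.19 against 0.03. Without mitochondrial genes in the sum, shares were 31.9% and 34.3% in nESC nucleoplasm and total RNA and 23.8% and 27.7% in EpiLC. A replicate block left the counts at 83, 73, 72 and 45 in nESC, 83, 76, 76 and 66 in EpiLC and 10, 1 and 4 for the state differences and changed no call of a named member. Correlations of same-numbered libraries ran from −0.22 to 0.18 over 36 pairs, with 3 over 0.1, and 15 pairs correlated best with their own number. With 3 libraries in a group, these values cannot decide whether libraries of one number share a culture. Of 5705 recomputed values of named members, 5195 kept their direction and side of the threshold, 200 lost and 74 gained a call, 9 changed sign with a call on one side and 227 changed sign without a call. Depth was high for every member but Rpl3l and Rpl6l.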
